A study of Homo sapiens with 12 samples.

Results

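The 10 genes KDM2A, KDM2B, KDM3A, KDM3B, KDM4A, KDM4B, KDM4C, KDM5A, KDM5B and KDM6B encode histone demethylases that need molecular oxygen. They were chosen by symbol, from Ensembl identifiers matched to GENCODE release 29, and are 10 of the 58735 genes in the count table. All 10 passed the filter on low counts, as did 16891 genes in all. Their transcripts were counted by RNA-seq in FDX2-iKO ES2, an ovarian cancer line of human origin. In these cells the endogenous FDX2 gene was disrupted with Cas9 and an HA-tagged, editing-resistant FDX2 is expressed only while doxycycline (Doxy) is present. Every library, the controls with Doxy included, therefore carries the FDX2 knockout and the transgene, which is driven by a Tet-responsive promoter. After editing the cells were cloned, and the results come from clone 1 unless the study states otherwise, so that the libraries stand for 1 clone. The 4 conditions were 20% O2 +Doxy and 20% O2 woDoxy (without Doxy), each for 6 days, and 3% O2 +Doxy and 3% O2 woDoxy, each with 4 days at 20% O2 followed by 3 days at 3% O2. Each condition had 3 replicates by the labels, which the study calls biological. Low oxygen and the additional day of culture cannot be told apart. No cells with an intact FDX2 gene were among the libraries. FDX2 loss below therefore means without against with Doxy, and an effect of Doxy itself cannot be told apart from it.

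These demethylases share the JmjC domain, which holds an iron(II) ion and uses molecular oxygen and 2-oxoglutarate to hydroxylate a methyl group on lysine. The methyl group leaves as formaldehyde, and 2-oxoglutarate becomes succinate and CO2. Succinate, fumarate and 2-hydroxyglutarate compete with 2-oxoglutarate and inhibit the enzymes. FDX2 is a mitochondrial ferredoxin that donates electrons for the assembly of Fe-S clusters, which succinate dehydrogenase, among others, carries. Several demethylase genes, KDM3A and KDM4B among them, are known to be induced by hypoxia-inducible factors (HIF), which bind the letters ACGTG or GCGTG in DNA. A question of the study was whether low oxygen changes what FDX2 loss does to the cells, and 2 kinds of comparison follow from the design: without against with Doxy at each oxygen level, and 3% against 20% O2 at each Doxy setting.

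Promoter sequence is shown for KDM4B and KDM3A, which are known for induction in hypoxia, and for KDM4C. KDM3A and KDM4C were called higher at 3% O2 with Doxy below. KDM4A is shown as a contrast for that comparison only. The 250 bases upstream of each RefSeq transcription start (GRCh38.p14) were searched on both strands for ACGTG and GCGTG, and the palindrome CACGTG, which holds ACGTG on both strands, was counted as 1 site. Of the 16 windows of the 10 genes, 12 (75%) held a match, against 43.2% of all 35116 promoter windows of that length. ACGTG was present in 2 of the 16 windows, those of KDM4B and KDM4C, and in 18.5% of all windows. GCGTG was present in all 12 windows with a match, and in 32.2% of all windows. The windows of the 10 genes held 50.4% to 83.6% G or C. Both motifs hold CG, and all promoter windows were not matched to these for base composition, so the shares do not show enrichment. KDM3B was the one gene with no match. Windows of 1 gene can overlap, and the 2 windows of KDM3A share their match. Only 6 of the 16 windows were free of exonic bases of annotated genes, and this was not counted for all promoter windows. A match describes letters in the window and is no evidence of binding. The KDM4B window lies at chr19:4968863-4969112 on the plus strand, and its matches are in capitals.

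KDM4B: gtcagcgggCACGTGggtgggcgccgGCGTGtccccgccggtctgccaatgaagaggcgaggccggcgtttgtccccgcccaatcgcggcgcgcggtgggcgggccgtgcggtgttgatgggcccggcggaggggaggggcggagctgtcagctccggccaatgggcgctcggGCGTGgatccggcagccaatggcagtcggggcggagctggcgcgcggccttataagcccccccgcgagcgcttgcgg

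For the other 3 genes, 30 bases around a match are shown, with the match in capitals. They are KDM3A at chr2:86441333-86441362, KDM4C at chr9:6757930-6757959, and KDM4A at chr1:43650058-43650087, all on the plus strand. The KDM4C window lies inside the annotated gene, and all its 250 bases are annotated as exon. The KDM3A windows hold 223 and 234 exonic bases, and those of KDM4A and KDM4B hold 0. KDM4A holds GCGTG and was not called between 3% and 20% O2 with Doxy. Without Doxy it was called lower at 3% O2 (log2 −0.25).
KDM3A: ccgggaggctgtGCGTGtcttgtgagagct
KDM4C: ggccccagcggtCACGTGacggcgcgcgcg
KDM4A: ggtggctgcggcGCGTGctcattggctggt

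The libraries held 24958386 to 34313637 counts (median 29621780), and each member had between 547 and 6745 counts in every library. Levels are given as CPM, each count relative to the TMM-scaled total of its library. The FDX2 transcript had 2 to 13 counts per library and did not pass the filter, so that its loss was not checked on these counts. At 20% O2 it had 5, 2 and 6 counts with Doxy and 9, 13 and 4 without. At 3% O2 it had 2, 4 and 12 with Doxy and 7, 7 and 5 without. No drop without Doxy is visible in these few counts. The study shows the loss of the FDX2 protein by Western blot. KRT8 (47.8 to 128 CPM), KRT18, VIM, CDH2, ARID1A and PAX8 (5.59 to 19.3 CPM) were present, whereas the epithelial markers KRT19, EPCAM and CDH1 and the ovarian markers NAPSA and WT1 stayed at or below 0.288 CPM in every library. The leukocyte markers PTPRC, CD3E and CD68 stayed at or below 0.282 CPM. Of the endothelial markers, PECAM1 reached at most 0.198 CPM and CDH5 lay between 22.1 and 51.4 CPM, highest in 3% O2 woDoxy (45.1 ± 5.88, SD, n = 3). The libraries come from cultures of a cloned line, and the source of the CDH5 transcript within them was not tested. In 3 libraries, 20% O2 +Doxy replicate 1, 3% O2 +Doxy replicate 3 and 3% O2 woDoxy replicate 2, GC-rich genes stood higher relative to GC-poor genes than in the other 9, and these are called the 3 GC-rich libraries. The difference between the top and bottom quartile of genes by transcript GC content was 0.373, 0.434 and 0.398 on the log2 scale there, and −0.323 to 0.12 in the others. All 3 libraries of 20% O2 woDoxy (−0.323 to −0.173) lay below all 3 of 3% O2 woDoxy (0.043 to 0.398). Leaving out the 3 GC-rich libraries therefore does not remove the trend from low oxygen without Doxy.

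Per kilobase of exon, KDM2A was the most abundant of the 10 transcripts in 20% O2 +Doxy cells at 16.8 ± 1.14 CPM per kb (SD, n = 3). KDM3B followed at 12.8 ± 0.425, KDM4A at 8.61 ± 0.362 and KDM5A at 4.94 ± 0.0833 CPM per kb. Of the exonic bases of KDM4A, 48.5% also belong to 2 overlapping genes, one on the same and one on the opposite strand, and the strand setting of the counting is not given in the sources used here, so the level of KDM4A is uncertain. KDM3A (3.56 ± 0.238 CPM per kb), KDM2B (3.24 ± 0.57) and KDM6B (3.15 ± 0.766) differed by less than their spread. KDM5B (2.15 ± 0.00781 CPM per kb), KDM4B (2.11 ± 0.492) and KDM4C (2.01 ± 0.0253) were lowest, and KDM4B could not be placed above or below the other two. The plot of levels by library shows the values behind the comparisons.

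**Figure D1:**
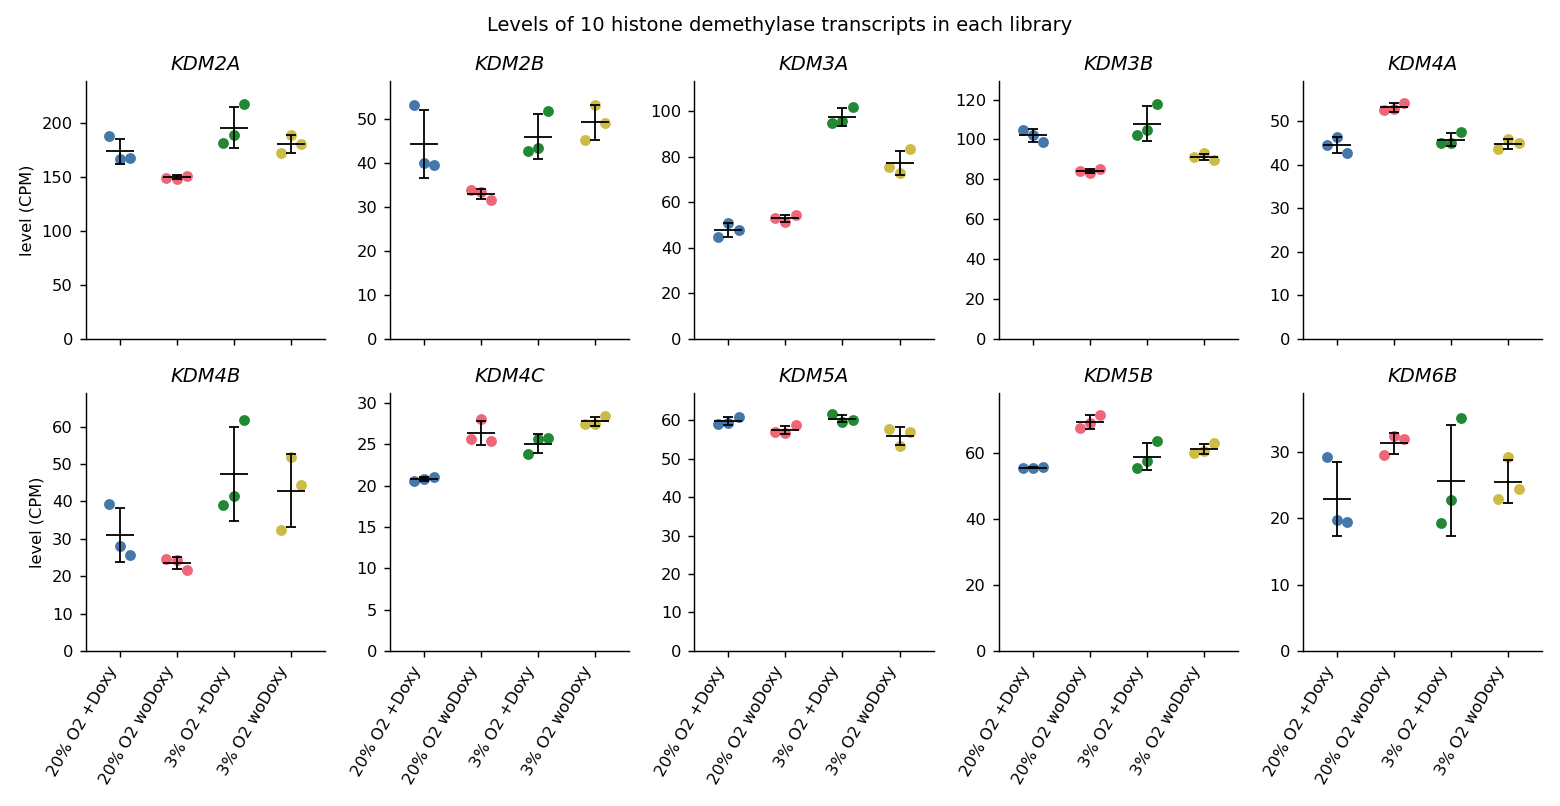
Level (CPM, axis from 0) of each of the 10 transcripts in the 3 libraries of each condition (points), with the mean and SD (black). KDM3A separates all 4 conditions, with 3% O2 +Doxy highest at 94.9 to 102 CPM, while KDM5A lies between 53.2 and 61.6 CPM throughout.

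Low oxygen in cells with Doxy raised KDM3A and KDM4C, and none of the 10 transcripts fell. A transcript was called changed at an adjusted p under 0.05 in edgeR's quasi-likelihood test, adjusted by Benjamini-Hochberg over all 16891 genes. These are 2 of 10 members, where 2.02% of all tested genes were called, 1.63% higher and 0.385% lower. The ranges of both conditions were apart for these 2 of the 10 members, and for 15.4% of all genes. Without any one of 5 of the 6 libraries compared, KDM3A alone was called. In bulk RNA, fewer cells with a transcript and less of it per cell cannot be told apart. The median log2 difference of the 10 was 0.13, and that of all genes −0.005.

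In cells without Doxy, low oxygen raised KDM2A, KDM2B, KDM3A and KDM4B and lowered KDM4A and KDM5B. These 6 of 10 members compare with 25.8% of all genes called, 13.9% higher and 11.9% lower. The ranges of both conditions were apart for 8 of the 10, against 49.4% of all genes. Their median log2 difference was 0.10, and that of all genes 0.065. Replicate numbers were taken to pair the libraries in this comparison, from correlations in these same data and not from the labels. A fit to these 6 libraries alone called 7 members with and without the replicate as a block, the additional one being KDM6B, and the block in the fit to 12 libraries called 6. Without 3% O2 woDoxy replicate 2 only 3 members were called, KDM2B, KDM3A and KDM4A.

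FDX2 loss at 20% O2 raised KDM4A, KDM4C and KDM5B and lowered KDM2A, KDM2B and KDM3B. With 6 of 10 members called, the background was 35.3% of all genes, of which 17.6% of all genes were higher and 17.7% lower. The ranges of both conditions were apart for all 10 members, against 52.3% of all genes. The median log2 difference of the 10 was 0.05, and that of all genes 0.009.

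FDX2 loss at 3% O2 lowered KDM3A and KDM3B, 2 of 10 members against 7.31% of all genes called, 4.2% higher and 3.11% lower. The ranges were apart for 4 of the 10, against 24.6% of all genes. Neither member kept its call in a fit to the 6 libraries compared or without 3% O2 woDoxy replicate 2. The difference between the responses to FDX2 loss at 3% and at 20% O2 passed the test for KDM3A and KDM4A, both toward lower values at 3% O2, where 7.29% of all genes were called, 3.21% higher and 4.08% lower. Without 20% O2 woDoxy replicate 3 neither was called. These comparisons share libraries in pairs, so their values stand side by side and were not correlated.

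**Figure D2:**
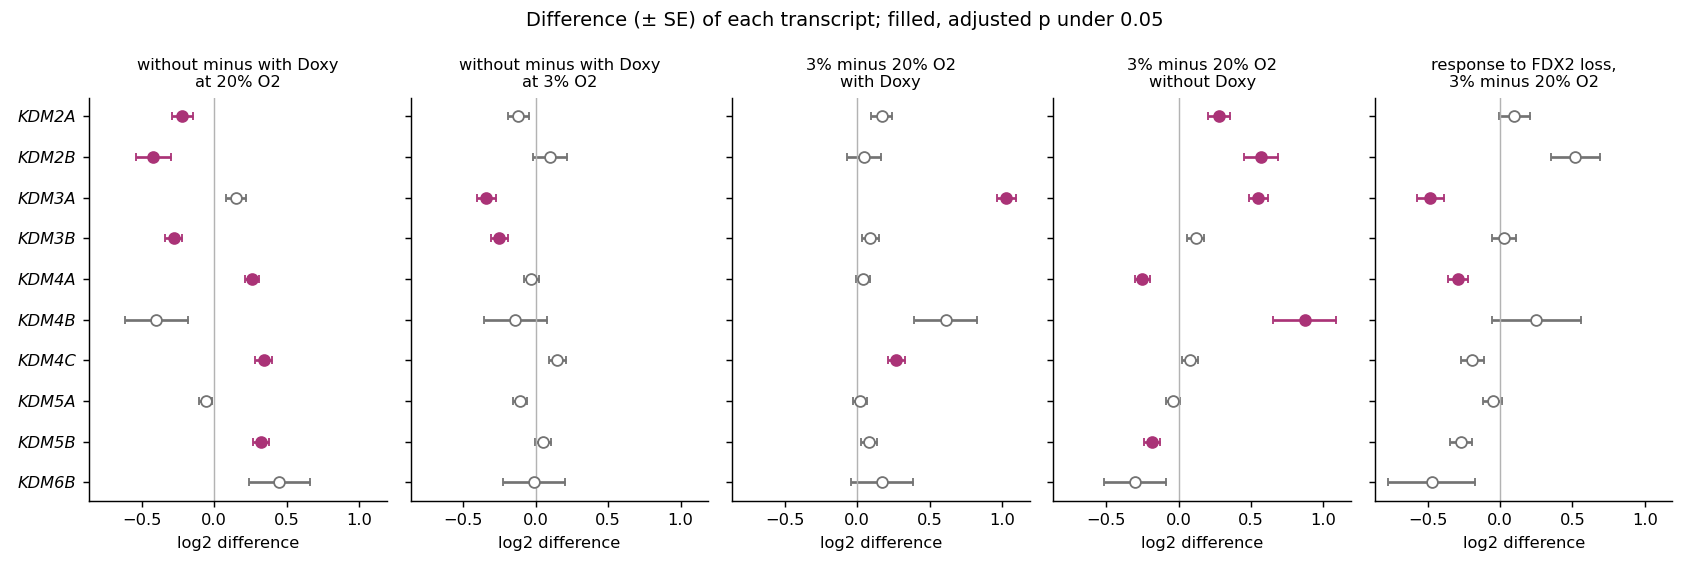
Log2 difference of each transcript (point) with its standard error (bar) in the 4 comparisons of conditions, and in the last panel the response to FDX2 loss at 3% O2 minus that at 20% O2. Filled points passed the test. KDM3A lies farthest from 0 between 3% and 20% O2 with Doxy (1.03), and KDM4B and KDM6B have the widest bars in every panel.

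KDM3A and KDM3B remove mono- and dimethyl marks from H3K9, a mark of silent chromatin. KDM3A (ENSG00000115548, GRCh38 chromosome 2, 86440647 to 86492716, plus strand) had 44.6, 50.9 and 47.8 CPM in 20% O2 +Doxy and 53.1, 51.3 and 54.2 in 20% O2 woDoxy. It had 94.9, 95.6 and 102 CPM in 3% O2 +Doxy and 75.5, 72.9 and 83.3 in 3% O2 woDoxy. No library of one condition reached the range of another, and the order from low to high was 20% O2 +Doxy, 20% O2 woDoxy, 3% O2 woDoxy, 3% O2 +Doxy. The step from 20% to 3% O2 was 2.04-fold with Doxy (log2 1.03, SE 0.067, adjusted p = 9.05e-06) and 1.46-fold without Doxy (log2 0.55, SE 0.0667, adjusted p = 0.000258). The 2 steps thus differed in size. The difference, which is also that of the responses to FDX2 loss, was −0.48 (SE 0.094, adjusted p = 0.0123). FDX2 loss lowered KDM3A by 20.8% at 3% O2 (log2 −0.34, SE 0.0661, adjusted p = 0.0121), whereas at 20% O2 the value was 0.15 (SE 0.0669, adjusted p = 0.111), which did not pass. Without 3% O2 woDoxy replicate 2 the former was −0.30 (adjusted p = 0.0537), and without 20% O2 woDoxy replicate 3 the difference of the responses was −0.47 (adjusted p = 0.052).

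KDM3A also had the widest range of condition means among the 10, 1.03 on the log2 CPM scale. Over the 12 libraries, the genes whose log2 CPM followed it most closely, among 10789 genes of at least 5 CPM on average, were PDK1 (r = 0.986), AK4 (0.986), ZNF160 (0.983), LRRC17 (0.982) and BNIP3L (0.975). These r are descriptions over libraries of 4 conditions. PDK1, a kinase that restrains pyruvate dehydrogenase and a known HIF target, was among the hypoxia reference genes, 7 of 7 of which were higher at 3% O2 with Doxy and 6 of 7 without Doxy.

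KDM3B (ENSG00000120733, chromosome 5, 138352596 to 138437028, plus strand) was lower without Doxy at both oxygen levels. It had 105, 102 and 98.5 CPM in 20% O2 +Doxy against 84, 83.2 and 85.4 in 20% O2 woDoxy, a log2 difference of −0.28 (SE 0.0588, adjusted p = 0.00405). At 3% O2 it had 102, 105 and 118 CPM with Doxy against 91.2, 93 and 89.6 without, a log2 difference of −0.25 (SE 0.0588, adjusted p = 0.028). The groups did not overlap in either case, and the responses differed by 0.03 (SE 0.0831, adjusted p = 0.871). Its call at 3% O2 ended when any one of the 3 libraries of 3% O2 woDoxy was left out (−0.26 to −0.24, adjusted p = 0.0685 to 0.082). Oxygen gave log2 differences of 0.09 (SE 0.0586, adjusted p = 0.607) with Doxy and 0.12 (SE 0.0589, adjusted p = 0.169) without.

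KDM4A, KDM4B and KDM4C remove di- and trimethyl marks from H3K9, and also from H3K36 in the bodies of active genes. KDM4C (ENSG00000107077, chromosome 9, 6720863 to 7175648, plus strand) was lowest in 20% O2 +Doxy, at 20.6, 20.8 and 21.1 CPM. It stood at 25.7, 28.1 and 25.4 CPM in 20% O2 woDoxy, at 23.8, 25.7 and 25.8 in 3% O2 +Doxy and at 27.5, 27.5 and 28.5 in 3% O2 woDoxy. By mean the order from low to high was 20% O2 +Doxy, 3% O2 +Doxy, 20% O2 woDoxy and 3% O2 woDoxy, and only the first step in it was free of overlap. FDX2 loss raised it at 20% O2 by 26.9% (log2 0.34, SE 0.0568, adjusted p = 0.000836), and low oxygen raised it with Doxy by 20.6% (log2 0.27, SE 0.057, adjusted p = 0.0349). The remaining log2 differences were 0.15 (SE 0.0567, adjusted p = 0.144) for FDX2 loss at 3% O2 and 0.08 (SE 0.0566, adjusted p = 0.341) for low oxygen without Doxy, and the former passed the test with the GC correction (0.18, adjusted p = 0.028). The call for low oxygen with Doxy ended in 5 of 6 fits that left out 1 library, all but the one without 3% O2 +Doxy replicate 1 (0.25 to 0.28, adjusted p = 0.0702 to 0.138), and also with no filter on low counts (adjusted p = 0.235) and with only the compared libraries (adjusted p = 0.251).

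KDM4A (ENSG00000066135, chromosome 1, 43650158 to 43705515, plus strand) stood apart in 20% O2 woDoxy, at 52.4, 52.7 and 54.2 CPM. The other 9 libraries lay between 42.7 and 47.4 CPM, with means of 44.5 ± 1.87 in 20% O2 +Doxy, 45.7 ± 1.47 in 3% O2 +Doxy and 44.7 ± 1.12 in 3% O2 woDoxy (SD, n = 3). The change with FDX2 loss at 20% O2 was 0.26 on the log2 scale (SE 0.0497, adjusted p = 0.00233), and low oxygen without Doxy changed it by −0.25 (SE 0.0499, adjusted p = 0.00481). FDX2 loss at 3% O2 gave −0.03 (SE 0.05, adjusted p = 0.737), and the responses differed by −0.29 (SE 0.0705, adjusted p = 0.0335). That last call ended in 9 of 12 fits that left out 1 library, every one except those without 20% O2 +Doxy replicate 1 or 2 or 3% O2 +Doxy replicate 3 (−0.31 to −0.26, adjusted p = 0.0547 to 0.102), and with no filter on low counts (adjusted p = 0.142). Reads of KDM4A and of the genes that share its exons cannot be told apart.

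KDM4B (ENSG00000127663, chromosome 19, 4969113 to 5153595, plus strand) had 39.2, 28.1 and 25.6 CPM in 20% O2 +Doxy and 24.6, 24.3 and 21.6 in 20% O2 woDoxy. At 3% O2 it had 39, 41.3 and 61.8 CPM with Doxy and 32.3, 51.8 and 44.5 without. In 20% O2 +Doxy and in both conditions at 3% O2, the highest value came from the library where GC-rich genes stood highest relative to GC-poor genes, and 61.1% of the bases of the KDM4B transcript are G or C, more than in 89.8% of tested genes. Without Doxy, all 3 libraries at 3% O2 exceeded all 3 at 20% O2, 1.82-fold (log2 0.87, SE 0.219, adjusted p = 0.0155). Without 3% O2 woDoxy replicate 2 this was 0.71 (adjusted p = 0.0649), and without 20% O2 woDoxy replicate 3 it was 0.80 (adjusted p = 0.0587). After correction of each library for its GC trend the log2 difference was 0.55 (adjusted p = 0.000923). The direction was upward in each of these fits. With Doxy the value was 0.61 (SE 0.216, adjusted p = 0.226), with overlap between the groups, and it passed the test with the GC correction (0.60, adjusted p = 0.0021) and without the 3 GC-rich libraries (0.58, adjusted p = 0.0486). FDX2 loss gave −0.40 (SE 0.219, adjusted p = 0.186) at 20% O2, which was −0.20 without 20% O2 +Doxy replicate 1 and −0.16 with the GC correction (adjusted p = 0.203), and −0.14 (SE 0.215, adjusted p = 0.731) at 3% O2.

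KDM2A and KDM2B remove dimethyl marks from H3K36 and bind unmethylated CpG islands, where KDM2B also brings in a Polycomb complex. KDM2A (ENSG00000173120, chromosome 11, 67119269 to 67258087, plus strand) was lowest in 20% O2 woDoxy, at 149, 148 and 151 CPM, and stood at 188, 167 and 168 in 20% O2 +Doxy. It stood at 172, 189 and 181 CPM in 3% O2 woDoxy and at 182, 189 and 218 in 3% O2 +Doxy. In this order the last 3 conditions overlapped, each with the next. FDX2 loss at 20% O2 lowered it by 14.2% (log2 −0.22, SE 0.0735, adjusted p = 0.0368), and low oxygen without Doxy raised it by 21% (log2 0.28, SE 0.0735, adjusted p = 0.0196). With the GC correction both were smaller and still called, at −0.15 (adjusted p = 0.00572) and 0.18 (adjusted p = 0.00262). Each of these calls ended in 3 of 6 fits that left out 1 library, namely 20% O2 woDoxy replicate 1 or 2 in both, 20% O2 +Doxy replicate 1 in the former (−0.23 to −0.18, adjusted p = 0.0556 to 0.0767) and 3% O2 woDoxy replicate 2 in the latter (0.24 to 0.26, adjusted p = 0.0536 to 0.0773). The other comparisons gave 0.17 (SE 0.0734, adjusted p = 0.339) for low oxygen with Doxy and −0.12 (SE 0.0734, adjusted p = 0.36) for FDX2 loss at 3% O2, and both passed with the GC correction (0.15, adjusted p = 0.0282, and −0.12, adjusted p = 0.044).

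KDM2B (ENSG00000089094, chromosome 12, 121429097 to 121581015, minus strand) was also lowest in 20% O2 woDoxy, at 33.8, 33.4 and 31.6 CPM. It had 53.1, 40 and 39.4 CPM in 20% O2 +Doxy, 42.6, 43.3 and 51.7 in 3% O2 +Doxy and 45.2, 53.1 and 48.9 in 3% O2 woDoxy. The 3 libraries of 20% O2 woDoxy lay below the other 9. FDX2 loss at 20% O2 lowered it by 25.4% (log2 −0.42, SE 0.119, adjusted p = 0.0173), and low oxygen without Doxy raised it 1.49-fold (log2 0.57, SE 0.119, adjusted p = 0.00569). Without 20% O2 +Doxy replicate 1 the former was −0.28, still called. With the GC correction the 2 values were −0.29 (adjusted p = 0.0006) and 0.40 (adjusted p = 0.000117). Both kept their direction and their call. The difference of the responses was 0.52 (SE 0.167, adjusted p = 0.0887) and passed the test at 0.37 with the GC correction (adjusted p = 0.00446), at 0.39 without the 3 GC-rich libraries (adjusted p = 0.00711) and at 0.62 without 3% O2 +Doxy replicate 3 (adjusted p = 0.0359).

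KDM5A and KDM5B remove di- and trimethyl marks from H3K4, which lies at active promoters. KDM5B (ENSG00000117139, chromosome 1, 202724495 to 202809470, minus strand) had 55.5, 55.4 and 55.8 CPM in 20% O2 +Doxy and 67.6, 69.1 and 71.5 in 20% O2 woDoxy. At 3% O2 it had 55.6, 57.6 and 63.5 CPM with Doxy and 60, 60.5 and 63 without, and these groups overlapped. FDX2 loss at 20% O2 raised it by 24.8% (log2 0.32, SE 0.0554, adjusted p = 0.00111), and at 3% O2 the value was 0.05 (SE 0.0555, adjusted p = 0.596). The difference of these responses was −0.27 (SE 0.0784, adjusted p = 0.0675), and −0.24 with the GC correction (adjusted p = 0.0553). It passed with DESeq2's Wald test (−0.27, adjusted p = 0.0102) and with at least 10 counts in every library (−0.29, adjusted p = 0.0387). Without the 3 GC-rich libraries it also passed (−0.21, adjusted p = 0.0495). Low oxygen without Doxy lowered it by 11.8% (log2 −0.18, SE 0.0554, adjusted p = 0.0342), a call that ended in 5 of 6 fits that left out 1 library, every one except that without 20% O2 woDoxy replicate 1 (−0.20 to −0.17, adjusted p = 0.0546 to 0.105), with no filter on low counts (adjusted p = 0.0844) and with the GC correction (−0.13, adjusted p = 0.0921). With the replicate as a block it passed the test in 6 libraries (−0.19, adjusted p = 0.0217), in 12 (−0.18, adjusted p = 0.0431) and in 6 with the GC correction (−0.13, adjusted p = 0.0471).

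KDM5A (ENSG00000073614, chromosome 12, 280129 to 389454, minus strand) was the steadiest of the 10. It lay at 59.7 ± 1.01 CPM in 20% O2 +Doxy, 57.4 ± 1.1 in 20% O2 woDoxy, 60.4 ± 1.02 in 3% O2 +Doxy and 55.9 ± 2.38 in 3% O2 woDoxy (SD, n = 3). No comparison called it. The log2 differences ran from −0.11 (SE 0.0468, adjusted p = 0.183) for FDX2 loss at 3% O2, where the groups did not overlap, to 0.02 (SE 0.0467, adjusted p = 0.948) for low oxygen with Doxy.

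KDM6B removes di- and trimethyl marks from H3K27, the mark of Polycomb repression, and is known as a gene induced by inflammatory and stress signals. KDM6B (ENSG00000132510, chromosome 17, 7839904 to 7854796, plus strand) had 29.3, 19.8 and 19.5 CPM in 20% O2 +Doxy and 29.5, 32.4 and 32 in 20% O2 woDoxy. At 3% O2 it had 19.3, 22.8 and 35.1 CPM with Doxy and 22.9, 29.2 and 24.4 without. In each condition the highest value came from the library where GC-rich genes stood highest relative to GC-poor genes, and 62.5% of the bases of the transcript are G or C, more than in 93.1% of tested genes. FDX2 loss at 20% O2 gave a log2 difference of 0.45 (SE 0.212, adjusted p = 0.123), although the groups did not overlap. It was 0.66 without 20% O2 +Doxy replicate 1 (adjusted p = 0.0327), 0.66 without the 3 GC-rich libraries (adjusted p = 0.000157) and 0.73 with the GC correction (adjusted p = 3.26e-05). The direction was upward in each of these fits, and the call came with them. Low oxygen without Doxy gave −0.30 (SE 0.212, adjusted p = 0.323). In a fit to the 6 compared libraries it was −0.31 without the replicate as a block (adjusted p = 0.0426) and −0.31 with it (adjusted p = 0.0231), and with the block in 12 libraries it was −0.29 (adjusted p = 0.395). With the GC correction it was −0.65 without the block (adjusted p = 0.000165) and −0.65 with it in 6 libraries (adjusted p = 0.00288). The part of GC content in the spread of KDM6B, KDM4B and KDM2B was not tested beyond these corrected values.

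**Figure D3:**
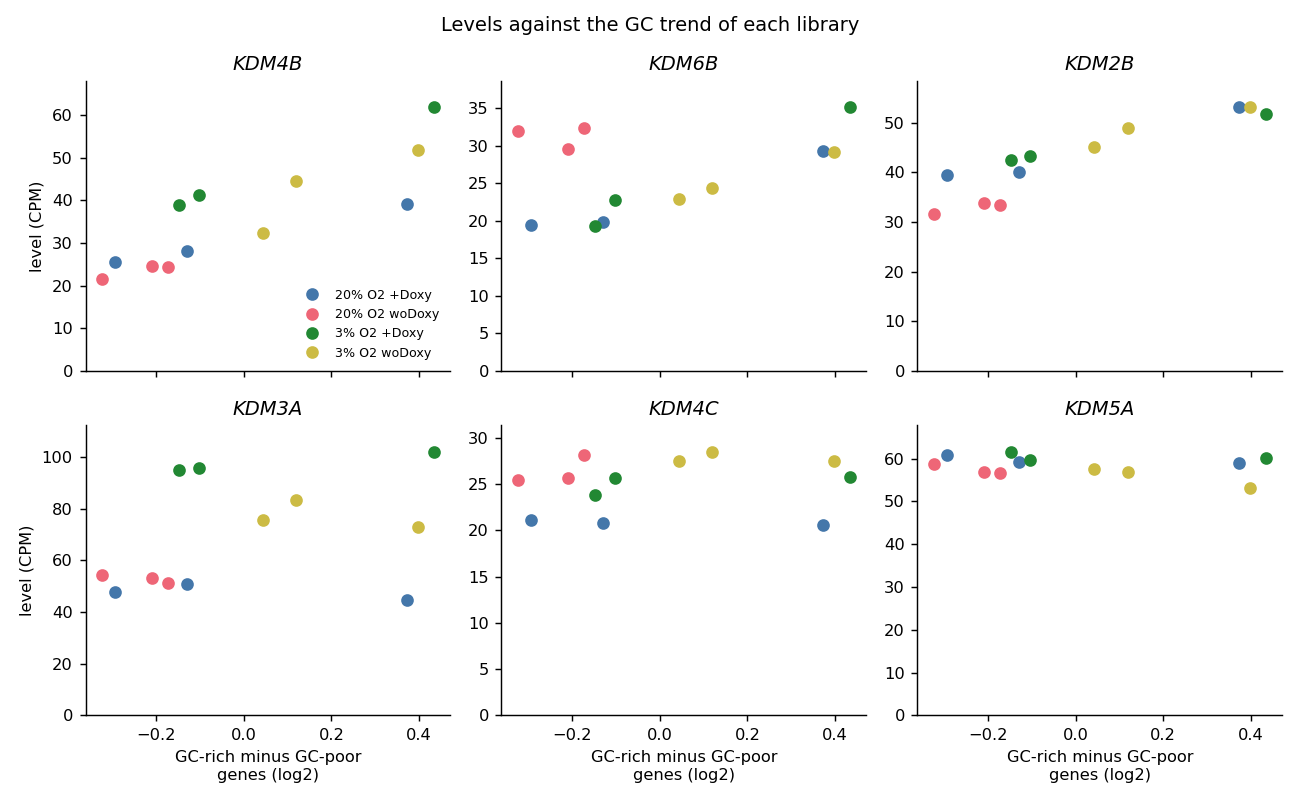
Level (CPM) of 6 of the transcripts against the GC trend of each library (top minus bottom quartile of genes by transcript GC content, log2), with 1 point per library colored by condition. KDM4B and KDM6B, the transcripts of highest GC content, stand highest within their condition in the libraries at 0.373 (20% O2 +Doxy) and 0.434 (3% O2 +Doxy), while KDM5A stays between 53.2 and 61.6 CPM.

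Related enzymes were counted by list for FDX2 loss at 20% O2, where 35.3% of all genes were called. Of 7 tested other JmjC histone demethylases, KDM7A, which acts on H3K9 and H3K27, rose by 0.86 (log2, SE 0.0869, adjusted p = 2.87e-05), and PHF2 fell by 0.57 (SE 0.111, adjusted p = 0.00248). Of 9 tested JmjC proteins with other substrates, 1 rose and 4 fell, the latter being KDM8 (−0.69), RIOX1 (−0.62), JMJD4 (−0.56) and JMJD8 (−0.48). JMJD4 was −0.31 and JMJD8 −0.18 (adjusted p = 0.151) with the GC correction, and 53.8% and 37.4% of their exonic bases are shared with genes on the opposite strand. The call of JMJD8 ended in 5 of 6 fits that left out 1 library, all but the one without 20% O2 +Doxy replicate 3 (−0.60 to −0.30). The flavin-dependent demethylases, which use oxygen but neither iron nor 2-oxoglutarate, went apart, KDM1A at −0.44 (SE 0.0584, adjusted p = 0.000181) and KDM1B at 0.19 (SE 0.0447, adjusted p = 0.00693), the latter not passing the test without 20% O2 woDoxy replicate 2 (0.16).

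Methyltransferases that lay down the same marks were counted in the same comparison, where 17.6% of all genes were called higher and 17.7% lower. Of 6 enzymes for H3K4, 4 fell and none rose, led by SETD1A (−0.66) and KMT2B (−0.64), which were −0.38 and −0.39 with the GC correction. The call of SETD1A ended in 4 of 6 fits that left out 1 library, namely 20% O2 +Doxy replicate 1 (−0.44) or 2, or 20% O2 woDoxy replicate 1 or 3. That of KMT2B also ended in 4, without 20% O2 +Doxy replicate 1 (−0.41) or any 1 library of 20% O2 woDoxy. Of 6 for H3K9, 4 fell, led by EHMT2 (−0.59, SE 0.148, adjusted p = 0.0101), and SETDB2 rose by 0.71 (SE 0.0922, adjusted p = 0.000156). For H3K27, EZH2, the catalytic subunit typical of dividing cells, fell by 0.50 (SE 0.0625, adjusted p = 0.000124) and EZH1 rose by 0.60 (SE 0.068, adjusted p = 6.39e-05). Of 5 for H3K36, 3 fell, led by NSD2 (−0.68, SE 0.0705, adjusted p = 3.39e-05), and NSD3 rose by 0.15 (SE 0.0503, adjusted p = 0.0344), a call that ended without the 3 GC-rich libraries and in 5 of 6 fits that left out 1 library, all but the one without 20% O2 +Doxy replicate 3 (0.10 to 0.17). The 5 proliferation reference genes all fell in this comparison (median −0.88), and the part of slower division in these values was not tested.

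Of 17 enzymes that make or use 2-oxoglutarate, succinate, fumarate or 2-hydroxyglutarate, 2 rose and 6 fell with FDX2 loss at 20% O2. The largest differences were those of D2HGDH (−0.59, and −0.25 with the GC correction), SDHA (−0.42), a subunit of succinate dehydrogenase, IDH1 (−0.40) and FH (−0.40), the fumarase. Subunits of succinate dehydrogenase did not move together. SDHC rose (0.35), and SDHB, the Fe-S protein among them, was not called (mean 76.4 CPM with and 80.6 without Doxy). Of 12 TET, FTO and ALKBH oxygenases, most of which act on nucleic acids, 1 rose, ALKBH8 (0.33), and 3 fell, ALKBH7 (−0.58, and −0.29 with the GC correction), TET3 (−0.27, and −0.14) and FTO (−0.21). Without 20% O2 +Doxy replicate 1 the value of D2HGDH was −0.38. The call of TET3 ended without 20% O2 +Doxy replicate 1 (−0.18) or 2, or 20% O2 woDoxy replicate 2 or 3, and that of FTO without 20% O2 +Doxy replicate 2 (−0.18). At 3% O2, where 7.31% of all genes were called, FDX2 loss raised SUCLG2 (0.28, SE 0.0584, adjusted p = 0.0154) and lowered FH (−0.27, SE 0.0613, adjusted p = 0.0222), and no other related enzyme passed the test. The call of FH ended in 4 of 6 fits that left out 1 library, those without replicate 1 or 2 of either condition (−0.28 to −0.26), and that of SUCLG2 without 3% O2 +Doxy replicate 2 (0.25).

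**Figure D4:**
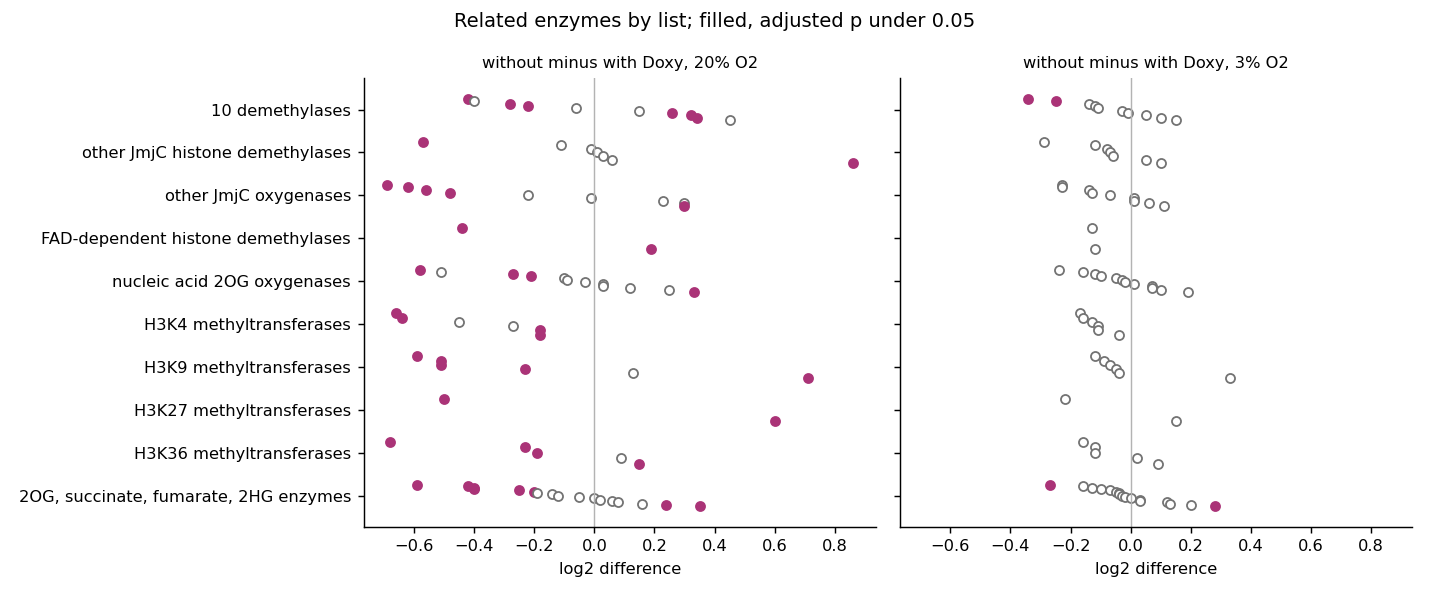
Log2 difference of each tested gene (point) without against with Doxy at 20% O2 (left) and 3% O2 (right), by list, with filled points for an adjusted p under 0.05. At 20% O2 the points run from −0.69 (KDM8) to 0.86 (KDM7A). At 3% O2 the 4 filled points are KDM3A, KDM3B, FH and SUCLG2.

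Low oxygen in cells with Doxy called 1 enzyme of the related lists, where 2.02% of all genes were called, 1.63% higher and 0.385% lower. It was ALKBH2 (−0.30, SE 0.0524, adjusted p = 0.0119), 1 of 12 TET, FTO and ALKBH oxygenases. Its call ended without 20% O2 +Doxy replicate 2 or 3% O2 +Doxy replicate 1 or 2. In cells without Doxy, where 25.8% of all genes were called, 13.9% higher and 11.9% lower, KDM7A fell by 0.99 (SE 0.0877, adjusted p = 3.45e-05) and PHF2 rose by 0.38 (SE 0.112, adjusted p = 0.0292). PHF2 was 0.23 with the GC correction, and its call ended in 5 of 6 fits that left out 1 library, all but the one without 3% O2 woDoxy replicate 1 (0.35 to 0.42). KDM1B fell by 0.39 (SE 0.045, adjusted p = 0.000179), KDM1A rose by 0.25 (SE 0.0584, adjusted p = 0.0113) and EZH1 fell by 0.35 (SE 0.0678, adjusted p = 0.00421). Of the 6 H3K9 methyltransferases 3 rose, EHMT2 (0.55, and 0.29 with the GC correction), EHMT1 (0.49, and 0.30) and SUV39H1 (0.39, and 0.16), and SETDB2 fell by 0.37 (−0.23 with the GC correction). The call of EHMT1 ended in 5 of 6 fits that left out 1 library, all but the one without 3% O2 woDoxy replicate 1. That of EHMT2 ended without 20% O2 woDoxy replicate 2 or 3 or 3% O2 woDoxy replicate 2, and that of SETDB2 without 20% O2 woDoxy replicate 3. NSD2 for H3K36 rose by 0.56 (SE 0.0704, adjusted p = 0.000303), and SETD2 by 0.17. Of 9 tested JmjC proteins with other substrates, 4 rose and 2 fell. Of 12 TET, FTO and ALKBH oxygenases, 3 rose and 2 fell. KDM8, JMJD8 and ALKBH7 among them lost their call with the GC correction. Of 6 enzymes for H3K4, 2 rose. Of 17 enzymes of 2-oxoglutarate, succinate, fumarate or 2-hydroxyglutarate, 3 rose and 3 fell, with SDHA at 0.43, SDHB at −0.27 and SDHC at −0.28.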

How the data were processed

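RNA-seq was analyzed in 12 libraries of FDX2-iKO ES2 cells, 3 per condition. The authors purified poly(A) RNA, primed cDNA with random hexamers, sequenced it as paired reads on the DNBSEQ-T7, aligned with STAR to GRCh38 and deposited raw counts per gene from featureCounts, with no normalization. Versions, strand setting and treatment of multi-mapped reads are not given in the sources used here. One FASTQ file of a pair was lost for 20% O2 +Doxy replicates 1 and 2, whose counts were used.

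Counts were analyzed in R 4.3.3 with edgeR 4.0.16 (TMM, filterByExpr with a minimum count of 10 and total of 15, quasi-likelihood test, 4 condition means, 12 libraries, 8 residual degrees of freedom), which kept 16891 of 32966 genes with a count (common biological coefficient of variation 16.3%). DESeq2 1.42.0 was an alternative. Members and lists were chosen with earlier results of these data known. All 10 members were named, and of the related lists at most the 4 largest called changes per comparison, with the 5 genes most like the member of widest range. SDHB and SDHC were named in addition. The GC correction removed each library's lowess trend (span 0.3, genes above a log2 CPM of 2) as an offset. Deviations from the condition mean correlated between same-numbered libraries of 20% O2 woDoxy and 3% O2 woDoxy at 0.245 to 0.359 (other pairs −0.428 to 0.0732), so these numbers were taken to pair the libraries, from the data and not from the labels. In no other pair of conditions were all same-numbered correlations over 0.1. Replicates differed by more than counting error (chi-square per degree of freedom 2.55 to 39.7). The fit was tested on simulated counts.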

Additional observations from a re-analysis of the deposited data

Results flagged for a closer look

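The response to FDX2 loss differed between 3% and 20% O2 by the test of that difference (edgeR, adjusted p under 0.05) in 2 of the 10 demethylase genes, KDM3A (−0.48, log2 value at 3% minus that at 20% O2) and KDM4A (−0.29). Of all tested genes, 7.29% were called. The call of KDM4A ended in 9 of 12 fits that left out 1 library, and that of KDM3A in 1. With the replicate block in 12 libraries KDM4A was not called (adjusted p = 0.0846). KDM2B, KDM5B and KDM6B did not pass in the main fit but did in some alternatives. With the GC correction KDM2B (0.37, adjusted p = 0.00446) and KDM6B (−0.81, adjusted p = 0.000978) passed. Among the listed enzymes the response to FDX2 loss differed for KDM7A (−0.92), KDM1A (0.31), KDM1B (−0.31), ALKBH8 (−0.35), EZH1 (−0.44), NSD2 (0.56) and SDHA (0.39). Among the reference genes it differed for PDK1 (−0.44) and VEGFA (−1.33) of hypoxia and for MKI67 (0.78), TOP2A (0.48), CCNB1 (0.80) and PCNA (0.38) of proliferation.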

How the results depend on the processing

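Over all alternatives, 686 of 770 values of the 10 demethylases kept their direction and side of the threshold, 44 lost a call, 23 gained one and 17 turned sign. Of 1949 values of related genes, 1695 kept their call and 254 lost it, and none turned sign. Counts of changed genes over all genes were 5961 for FDX2 loss at 20% O2, 1235 for FDX2 loss at 3% O2, 341 and 4360 for 3% against 20% O2 with and without Doxy, and 1231 for the difference of the responses. In that order, a 1.5-fold minimum gave 2301, 341, 182, 1338 and 526 genes and 0, 0, 1, 1 and 0 members. For FDX2 loss at 3% O2, low oxygen with Doxy and the difference of the responses, the GC correction gave 3302, 1310 and 3180 genes and 4, 4 and 4 members, and leaving out the 3 GC-rich libraries, chosen after seeing the data, gave 2610, 520 and 2568 genes, with 5 members in the last. With the GC correction 68.8% of the genes called for low oxygen with Doxy were higher, against 80.9%. With no filter, 678 genes were called for FDX2 loss at 3% O2, 672 genes and 1 member for the difference, and 1 member for low oxygen with Doxy. With only the compared libraries, FDX2 loss at 3% O2 gave 218 genes and 0 members, and low oxygen with Doxy 128 genes and 1 member. DESeq2's Wald test gave 1859 genes for FDX2 loss at 3% O2, 605 for low oxygen with Doxy, and 4 members for the difference.

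With the replicate block in the fit to 12 libraries, FDX2 loss at 3% O2 gave 676 genes and 1 member, low oxygen with Doxy 218 genes and 1 member, and the difference 615 genes and 1 member. KDM2A then lost its call for FDX2 loss at 20% O2 (adjusted p = 0.0666). By the labels the samples share only a number, which was taken as a pairing for 20% O2 woDoxy and 3% O2 woDoxy alone. For the comparison of these conditions, a fit to 6 libraries called 7 members with and without the block, KDM6B being the additional one. The block in 12 libraries called 6, so that the block itself moved no member's call.

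Leaving out 1 library gave 581 to 1605 genes and 0 to 2 members for FDX2 loss at 3% O2, 190 to 388 genes and 1 to 2 members for low oxygen with Doxy, 2321 to 4200 genes and 3 to 5 members for low oxygen without Doxy, and 520 to 2191 genes and 0 to 3 members for the difference. Some values that did not pass the test turned sign. KDM5A turned for low oxygen with Doxy (−0.00022 with no filter, −0.0018 to 0.03 without 1 library) and without Doxy (0.02 with the GC correction, with or without the block). KDM2B turned for low oxygen with Doxy (−0.04 to 0.20 without 1 library), as did KDM6B (−0.12 to 0.38). KDM3B turned in the difference (−0.01 to 0.10), as did KDM4B with the GC correction (−0.06). For FDX2 loss at 3% O2, KDM4B (−0.30 to 0.10) and KDM6B (−0.19 to 0.28, and 0.15 without the 3 GC-rich libraries) turned. The cause was not tested.

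With 3 replicates per condition, a difference smaller than the spread between them could not be detected, and a p that misses the threshold does not show that levels were equal.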
